A study of Mus musculus with 4 samples.

Results

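Myosin heavy chain RNA was followed in spatial transcriptomes of tibial muscle from Nse-Bmp4 mice before and after muscle injury. The members were the feature rows with the symbols Myh1, Myh2, Myh3, Myh4, Myh7, Myh8, Myh9, Myh10 and Myh11, which were 9 of 32285 features, found by symbol and not by their values. Nse-Bmp4 mice carry a murine Bmp4 cDNA under the rat neuron-specific enolase promoter, and form bone in muscle after injury (heterotopic ossification, HO). The mice were 6 to 8 weeks old on the C57BL/6 background, and the injury was an injection of cardiotoxin (CTX), a snake toxin that lyses muscle fibres. The groups were uninjured muscle (day 0) and muscle on day 1, day 3 and day 7 after injury, with 1 section per group, and every section carried the transgene, so no transgene-free muscle was compared here. The labels state that 3 tibial muscles were mixed per group, and how that maps onto a section was not settled here. Each value therefore describes a single section, day and section cannot be told apart, and intervals at 95% cover counting error only.

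Myosin heavy chains are the motor proteins of the thick filament, and the isoform that a muscle fibre makes sets much of its contraction speed. In the mouse limb, Myh4 encodes the fastest isoform (type 2B), Myh1 type 2X, Myh2 type 2A, and Myh7 the slow, type 1 isoform. Myh3 (embryonic) and Myh8 (perinatal) are made by developing muscle and again by newly formed fibres after injury. Myh9 and Myh10 encode non-muscle myosin heavy chains that drive cell shape change and migration, and Myh11 encodes the smooth muscle heavy chain of vessel walls.

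Of the 6 sarcomeric members, 5 lie in a gene cluster, and chosen sets of their promoters were searched for shared sequence. Per RefSeq on GRCm38.p6, Myh3, Myh2, Myh1, Myh4 and Myh8 stand in that order on chromosome 11 from 67078273 to 67308634, a stretch of 230362 bases. Their identifiers in the files are ENSMUSG00000020908 (Myh3), ENSMUSG00000033196 (Myh2), ENSMUSG00000056328 (Myh1), ENSMUSG00000057003 (Myh4) and ENSMUSG00000055775 (Myh8). Myh10 (ENSMUSG00000020900) lies on the same chromosome at 68691915 to 68816626, 1383280 bases beyond Myh8. Myh7 (ENSMUSG00000053093) is on chromosome 14 at 54970684 to 54994626, Myh9 (ENSMUSG00000022443) on chromosome 15 at 77760585 to 77842175 and Myh11 (ENSMUSG00000018830) on chromosome 16 at 14194527 to 14292188. Promoter entries were found for 8 of the 9 members, the exception being Myh11. Windows were the 250 bases before the start site of each promoter entry. The longest run shared by Myh1, Myh2, Myh4 and Myh8 was the 14-base TTCTAATTATATCC. It was picked as the longest run of that chosen set, so its presence in these 4 windows was fixed by the choice. It occurred in no other of 32851 windows on either strand (0.0122%), and how rare other runs of this length are was not tested. These 4 genes are the 3 adult fast isoforms and perinatal Myh8, and the part of each window that holds the run is shown for them, 5′ to 3′ on the plus strand with the run in capitals. The windows are chr11:67237594-67237687 for Myh4, chr11:67199882-67199975 for Myh1, chr11:67170842-67170935 for Myh2 and chr11:67277010-67277103 for Myh8.
Myh4: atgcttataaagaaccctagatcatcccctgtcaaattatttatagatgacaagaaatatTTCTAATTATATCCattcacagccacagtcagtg
Myh1: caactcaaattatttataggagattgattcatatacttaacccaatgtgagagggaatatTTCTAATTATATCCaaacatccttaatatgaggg
Myh2: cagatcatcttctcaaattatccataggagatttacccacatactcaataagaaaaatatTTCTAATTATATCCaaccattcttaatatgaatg
Myh8: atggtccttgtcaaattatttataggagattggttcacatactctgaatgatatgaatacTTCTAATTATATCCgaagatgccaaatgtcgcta
The run began 158 bases before the annotated start of Myh4, 160 before Myh1, 125 before Myh2 and 54 before Myh8. Myh3, at the other end of the cluster and the first developmental isoform to appear in these sections, did not hold it, and the longest run that all 5 genes shared was 7 bases. The 250 bases before the start site of its promoter entry, chr11:67078050-67078299, are shown with the letters TATAAA, the core of a TATA box, in capitals. That start site is not the gene start of 67078273 given above, which falls inside this window.
Myh3: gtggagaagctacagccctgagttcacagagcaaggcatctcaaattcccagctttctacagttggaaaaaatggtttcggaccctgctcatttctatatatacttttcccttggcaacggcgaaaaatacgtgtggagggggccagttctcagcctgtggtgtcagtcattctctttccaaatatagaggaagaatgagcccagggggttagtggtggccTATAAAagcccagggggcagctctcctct
TATAAA was found on either strand in 12.4% of all windows, and among the members in those of Myh1, Myh3, Myh4, Myh8 and Myh9. CANNTG, the letters bound by the MyoD family, was in 66.2% of all windows. The MEF2 consensus, searched on both strands, was in 2.92% of all windows and in those of Myh1, Myh4 and Myh8, and the CArG box was in 1.47% and in that of Myh4. Such matches describe letters and show no binding.

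The sections held 2107 spots on day 0, 2667 on day 1, 3029 on day 3 and 3032 on day 7, and from 16777832 UMIs (unique molecular identifiers, which count captured RNA molecules) on day 1 to 56113066 on day 3. The day 1 section was the shallowest, with a median of 6322 UMIs per spot against 12119.5 to 21029 in the others, and 513 of its spots were under 2000 UMIs against 9 to 84. Pairs of sections shared 1539 to 2311 spot barcodes, which name positions on the capture array and not cells. The labelled tissue was borne out by its markers, since the 8 skeletal muscle genes (among them Acta1, Ckm and Des) summed to 41866 CPM (UMIs scaled to a section total of 1000000) or more in every section. Monocyte/macrophage markers summed to 326 CPM on day 0, 1311 on day 1, 6796 on day 3 and 1698 on day 7, and 0 of their 7 genes were at 0. In a spot, fewer cells of a type and less RNA per cell cannot be told apart.

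Members differed in opposite directions from the uninjured section. At least a 2-fold difference in CPM was used as the call. On day 1, 1 of 9 members was higher (Myh7) and 4 were lower (Myh1, Myh2, Myh4 and Myh8), while 15.8% of all 12709 features tested were higher and 10.4% were lower. On day 3, 2 members were higher (Myh3 and Myh8) and 1 was lower (Myh4), against 31.9% and 6.77% of features. The same 2 members were higher on day 7 and 0 were lower, against 29.3% and 1.42% of features. All comparisons with day 0 share that section. Between injured sections, 5 members were higher on day 3 than on day 1 (Myh1, Myh3, Myh8, Myh9 and Myh10) and 1 was lower (Myh7), against 18.2% and 1.71% of features. From day 3 to day 7, 3 were higher (Myh4, Myh8 and Myh11) and 0 lower, against 13.1% and 10.3%. The Myh4 ratio of 1.05 on the log2 scale was below 2-fold with TMM factors (0.996), size factors (0.977) and per deposited spot (0.63).

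CPM depends on how much other RNA a section holds, and the median log2 ratio of all features to day 0 was 0.16 on day 1, 0.57 on day 3 and 0.63 on day 7. TMM factors moved these ratios by -0.21, -0.55 and -0.61, and by -0.34 for day 3 against day 1. With those factors 1 member was at least 2-fold higher on day 3 (Myh3) and 4 were lower (Myh1, Myh2, Myh4 and Myh11), against 18.7% and 14.6% of features. On day 7 Myh3 and Myh8 were again the 2 higher members and 2 were lower (Myh2 and Myh4), against 12.5% and 5.38% of features. For day 3 against day 1 the TMM counts were 2 higher (Myh3 and Myh8) and 2 lower (Myh4 and Myh7), against 10.8% and 3.85% of features. Shares of isoforms among the sarcomeric Myh UMIs do not depend on this scaling, and they are given beside the CPM values.

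**Figure D1:**
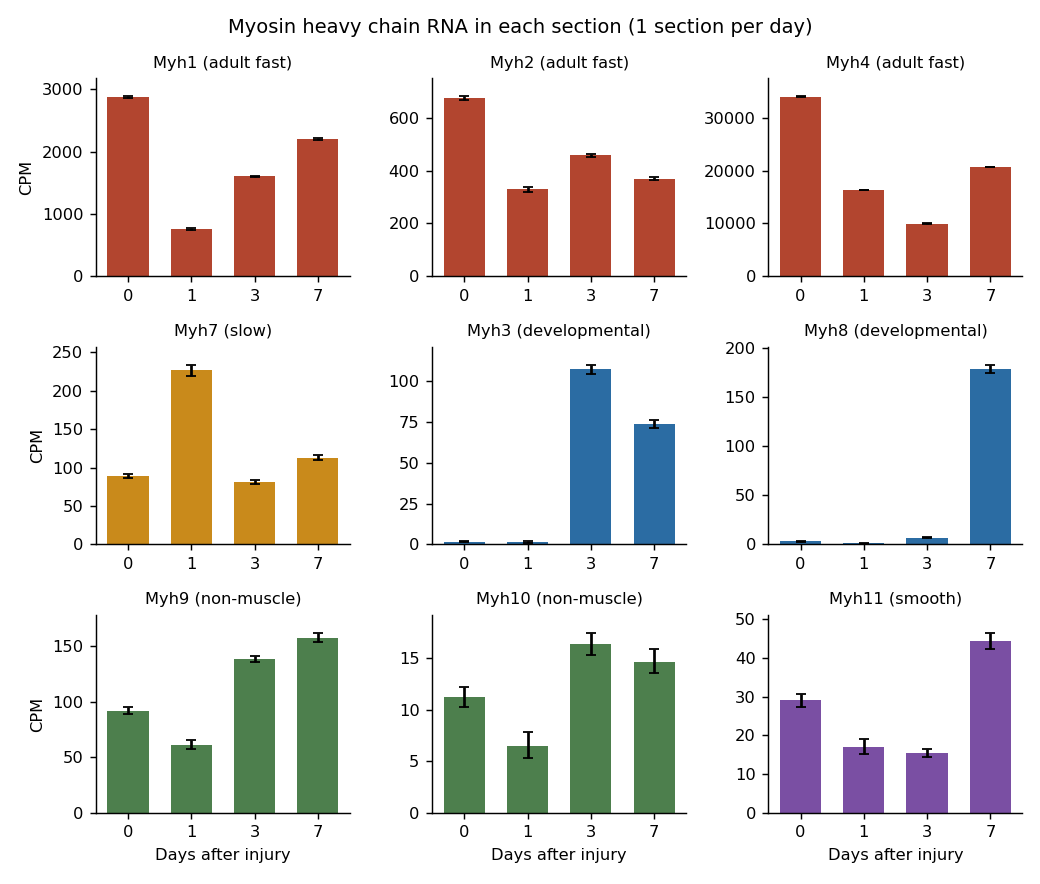
CPM of each member (y axis, linear, from 0, with its own range in each panel) at days 0, 1, 3 and 7 after injury (x axis), 1 section per day; bars are the value of the section and whiskers the exact Poisson interval at 95% for counting error. Myh4 was lowest on day 3 (9963 CPM), Myh7 was highest on day 1 (227 CPM), Myh3 on day 3 (107 CPM) and Myh8 on day 7 (179 CPM).

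Adult fast isoforms held nearly all sarcomeric heavy chain RNA in every section, and each was lower after injury than in uninjured muscle. Myh4 had 34065 CPM on day 0, 16325 on day 1, 9963 on day 3 and 20694 on day 7, from 1494482, 273899, 559052 and 865691 UMIs. Its log2 ratio to day 0 was -1.06 on day 1, -1.77 on day 3 and -0.72 on day 7, so the lowest CPM was on day 3 and that of day 7 lay between those of days 0 and 3. Per deposited spot Myh4 was lowest on day 1, with 102.7 UMIs against 184.6 on day 3, and the log2 ratio of day 3 to day 1 turned from -0.71 to 0.85. Myh1 had 2873 CPM on day 0, 757 on day 1, 1602 on day 3 and 2200 on day 7. Its lowest level was thus on day 1, when its log2 ratio to day 0 was -1.92 (-1.95 to -1.90), a larger difference than that of Myh4. Myh2 had 674, 328, 459 and 369 CPM on the same days. It stayed below its day 0 level in each injured section, with a log2 ratio of -0.87 on day 7, and these signs held with TMM factors and per deposited spot for all 3 fast isoforms.

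The order of the isoforms was the same on every day among the fast genes, but the distances between them changed. Myh4 had 11.9 UMIs for each Myh1 UMI on day 0, 21.6 on day 1, 6.22 on day 3 and 9.41 on day 7, and no neighbouring intervals overlapped. For each Myh2 UMI there were 50.5 Myh4 UMIs on day 0 and 49.7 on day 1, values whose intervals overlapped, then 21.7 on day 3 and 56.1 on day 7. Day 3 was therefore the section with the least Myh4 relative to the other 2 fast isoforms. As shares of the 6 sarcomeric Myh genes, Myh4 held 90.3% of UMIs on day 0, 92.6% on day 1, 81.5% on day 3 and 87.6% on day 7, and Myh1 held 7.62%, 4.29%, 13.1% and 9.31%. UMIs were counted from the 3′ end of each captured molecule and were not divided by transcript length.

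**Figure D2:**
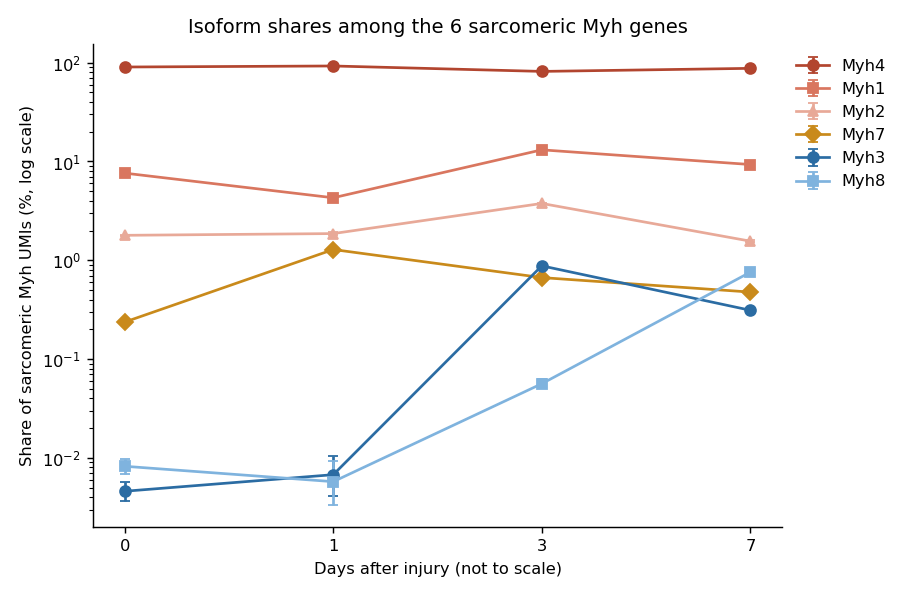
Share of the summed UMIs of the 6 sarcomeric Myh genes held by each isoform (y axis, percent, log scale) at each day after injury (x axis, not to scale), 1 section per day; points are the section's share, lines join the days and whiskers are exact Clopper-Pearson intervals. Myh4 stayed above 81% throughout, Myh7 peaked on day 1 (1.28%), and the developmental isoforms Myh3 and Myh8 were under 0.01% each until day 1 and reached 0.878% on day 3 and 0.758% on day 7.

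The partners of the fast heavy chains in the contractile apparatus were lower as well. Of 10 fast fibre genes, which encode fast troponins and light chains, the calcium pump Atp2a1, Actn3, the calcium buffer Pvalb, Casq1 and Mybpc2, 5 were at least 2-fold lower on day 1, 10 on day 3 and 4 on day 7, and 0 were higher on any of these days. Among all features 10.4%, 6.77% and 1.42% were lower on these days. The median log2 ratio of the fast fibre genes was -0.90 on day 1, -1.86 on day 3 and -0.82 on day 7. Pvalb had 17172 CPM on day 0 and 3332 on day 3. Relative to the UMIs of the skeletal muscle list, which holds no Myh gene, the 6 sarcomeric Myh genes stood at 34.0% on day 0, 29.9% on day 1, 29.2% on day 3 and 35.7% on day 7. The sarcomeric heavy chains thus moved less against other muscle RNA than against the whole section. Myhas, a noncoding transcript annotated between Myh1 and Myh4, had 62.0 CPM on day 0, 23.7 on day 1, 14.2 on day 3 and 31.5 on day 7, and its lowest CPM was on day 3 as for Myh4. Per deposited spot it too was lowest on day 1, with 0.149 UMIs against 0.262 on day 3.

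The slow isoform Myh7 was highest on day 1. It had 89.3 CPM on day 0 (3919 UMIs), 227 on day 1 (3801 UMIs), 81.6 on day 3 (4579 UMIs) and 113 on day 7 (4710 UMIs). The log2 ratio of day 1 to day 0 was 1.34 (1.28 to 1.41), larger than in 90.4% of features, and that of day 3 to day 1 was -1.47. Per deposited spot the levels were 1.86 UMIs on day 0 and 1.43 on day 1, so the direction turned on that scale, with a log2 ratio of -0.38. Over spots with at least 1000 UMIs the CPM ratio was 1.36 on the log2 scale. Its share of sarcomeric Myh UMIs, which neither scaling touches, was 0.237% (0.230 to 0.244) on day 0, 1.28% (1.24 to 1.33) on day 1, 0.668% on day 3 and 0.477% on day 7. The share was thus higher than on day 0 in every injured section, while the day 7 CPM ratio, 0.33, was -0.27 with TMM factors.

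Most slow fibre partners were higher in CPM on day 1, as Myh7 was. Of 10 genes, 7 were at least 2-fold higher than on day 0 and 1, the calcium-binding Casq2, was lower, with a list median of 1.42 on the log2 scale against 0.16 for all features. Slow troponins Tnni1, Tnnt1 and Tnnc1 and the slow light chains Myl2 and Myl3 had log2 ratios from 1.33 to 1.80. Per deposited spot the day 1 ratios moved by -1.73. Those of Tnnt1, Tnnc1, Myl2, Myl3 and Tpm3, at most 1.68 in CPM, thus turned as that of Myh7 did. Tnni1, at 1.80, lay just above that shift. The largest ratio was that of Csrp3, a mechanosensing protein of the Z disc, which went from 46.3 to 1200 CPM. In spots where Myh4 had the most sarcomeric Myh UMIs it also went from 45.4 to 920 CPM. Csrp3 was 46.3 of the 747 CPM of the slow list on day 0 and 1200 of 2877 on day 1. Its part in the choice of slow-rich spots was not tested. By day 7 Myl2 and Myl3 stood at 77.5 and 148 CPM, below their day 0 levels of 102 and 180, while Tnni1 stood at 161 CPM against 29.0. On days 3 and 7, 4 of the 10 were at least 2-fold higher than on day 0, with medians of 0.76 and 0.58 against 0.57 and 0.63 for all features.

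Myh7 RNA was concentrated in very few spots on every day. Spots that together held 50% of its UMIs were 31 of 2107 on day 0, 45 of 2667 on day 1, 53 of 3029 on day 3 and 26 of 3032 on day 7. For Myh4 the same share of UMIs took 648 spots on day 0, which was 30.8% of the section. Among spots with at least 100 sarcomeric Myh UMIs, the median spot had no Myh7 UMI in any section, and the highest share of Myh7 in a spot was 20.3% on day 0, 67.9% on day 1, 68.5% on day 3 and 36.0% on day 7. Spots with at least 2000 UMIs were then ranked by list. In the 10% of them richest in slow fibre partners, a list that holds no Myh gene, Myh7 CPM over that of the other spots was 27.0-fold on day 0, 86.3-fold (76.4 to 97.9) on day 1, 13.9-fold on day 3 and 21.6-fold on day 7. Those spots had 602 CPM of Myh7 on day 0 and 1702 on day 1, against 22.3 and 19.7 CPM in the rest. The CPM excess of Myh7 on day 1 thus lay in the slow-rich spots. In UMIs, these held 3053 in 209 spots on day 0 and 3503 in 215 spots of the shallower day 1 section.

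Myh3, the embryonic isoform, was near absent in the first pair of sections and present on day 3. It had 76 UMIs on day 0 and 20 on day 1 (1.73 and 1.19 CPM), then 6022 UMIs on day 3 and 3082 on day 7 (107 and 73.7 CPM). The log2 ratio to day 0 was 5.95 (5.63 to 6.30) on day 3, larger than in 99.4% of features, and 5.41 (5.08 to 5.76) on day 7. Day 0 and day 1 did not differ beyond counting error, since the interval of their log2 ratio ran from -1.33 to 0.19. A single day 0 spot held 12 of the 76 UMIs.

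Myh8, the perinatal isoform, followed later. It had 136 UMIs on day 0, 17 on day 1, 386 on day 3 and 7489 on day 7 (3.10, 1.01, 6.88 and 179 CPM). Its log2 ratio to day 0 was 1.15 on day 3, or 0.60 with TMM factors, and 5.85 (5.61 to 6.11) on day 7, and day 7 over day 3 it was 4.70. The pair of developmental isoforms thus changed places, with 0.0641 Myh8 UMIs per Myh3 UMI on day 3 and 2.43 on day 7. Together they held 0.0128% of sarcomeric Myh UMIs on day 0, 0.0125% on day 1, 0.935% on day 3 and 1.07% on day 7. As the mean of the spots' own shares they were at 2.04% on day 3 and 0.860% on day 7, so the order of these days turned. Day 0 had 50.9 Myh3 and 91.0 Myh8 UMIs per 1000000 Myh4 UMIs, and whether so few came from these genes or from reads of a near-identical paralog was not tested. Against that, day 3 had 10772 Myh3 and day 7 had 8651 Myh8 UMIs on that scale.

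Most partners of the developmental isoforms were higher on the same days. Of 8 developmental muscle partners, 7 were at least 2-fold higher on day 3 than on day 0 (list median 3.24 against 0.57 for all features) and 5 on day 7 (2.14 against 0.63). Myl4, the embryonic light chain, had 16.1 CPM on day 0, 16.3 on day 1, 222 on day 3 and 360 on day 7. Mymk and Mymx, the membrane proteins that fuse myoblasts, reached 65.2 and 43.9 CPM on day 3 and stood at 37.9 and 9.11 on day 7, as Myh3 also had its highest level on day 3. Tnnt2 had 64.7 and 64.2 CPM on those days, from 3.40 on day 0. Actc1, cardiac actin, was the exception with 6066 CPM on day 0 and 143 on day 3, and it dominated the list's summed level in uninjured muscle. Among 7 myoblast factors 3 were at least 2-fold higher on day 3, among them Myod1 (41.4 to 198 CPM), and 1 was on day 7 (Myf5), against 31.9% and 29.3% of all features. The median of that list was below that of all features, at 0.12 against 0.57 on day 3 and 0.35 against 0.63 on day 7.

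Developmental isoforms were enriched in spots rich in their partners, but not only there. In the 10% of spots richest in slow fibre partners, Myh3 held 3.15% of sarcomeric Myh UMIs on day 3 against 0.631% elsewhere. On day 7 Myh3 held 1.60% against 0.161% in the slow-rich spots, and Myh8 held 3.86% against 0.396%. In the 10% of spots richest in the developmental list, Myh3 was 9.63-fold (9.13 to 10.2) higher than in the other spots on day 3 and 11.1-fold on day 7, and Myh8 was 9.38-fold and 10.0-fold higher. In the day 3 spots Myh3 held 8.84% of sarcomeric Myh UMIs against 0.330% elsewhere, while Myh4 held 46.3% against 84.0% and Myh7 3.70% against 0.459%. On day 7 Myh8 held 2.92% there against 0.299% elsewhere, and Myh4 held 86.6% against 87.8%. Spots richest in the list thus had a lower Myh4 share than the rest of the section on day 3. The gap was far smaller on day 7. Actc1 made up 926 of the 1496 CPM of the list on day 7, but 143 of the 849 CPM on day 3, so different genes largely chose the spots. On day 0, where Actc1 dominated the list, list-rich spots held 97.2% Myh4 against 89.4% elsewhere. The part of Actc1 in the contrast between days was not tested. Myh3 and Myh8 had a UMI in 6.87% and 13.2% of day 7 spots thinned to 2000 UMIs, and both together in 2.78%, which was 3.05 times the product of their separate shares. Where mature muscle RNA was densest they were scarce, as Myh3 in the 10% of spots richest in the skeletal muscle list was at 0.0476-fold the level of other spots on day 3 and 0.245-fold on day 7. In the cartilage-rich spots of day 7, Myh3 was at 0.278-fold and Myh8 at 0.228-fold, and in the fibroblast-rich spots they were at 0.448-fold and 0.204-fold in CPM. As shares of sarcomeric Myh UMIs the gaps in the cartilage-rich spots were smaller, at 0.253% against 0.315% elsewhere for Myh3 and 0.508% against 0.769% for Myh8. As shares in the fibroblast-rich spots, Myh3 was higher there than elsewhere (0.597% against 0.304%) and Myh8 stood at 0.682% against 0.761%.

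In macrophage-rich spots the developmental isoforms made up a larger part of sarcomeric heavy chain RNA on both days, while their CPM was lower than elsewhere on day 3 and higher on day 7. In the 10% of spots richest in monocyte/macrophage genes, Myh3 was 0.626-fold (0.575 to 0.679) and Myh8 0.418-fold the CPM of the other spots on day 3. Their shares of sarcomeric Myh UMIs there were 4.08% against 0.805% elsewhere for Myh3 and 0.181% against 0.0534% for Myh8. On day 7 the CPM ratios were 6.07-fold (5.65 to 6.52) for Myh3 and 6.31-fold for Myh8, and the shares were 1.59% against 0.165% and 3.94% against 0.393%. Myh7 was at 0.231-fold in CPM on that day. Myh9, which many cell types express, was 1.59-fold and 1.40-fold the level of the other spots in them on these days. The part of macrophage RNA in these ratios was not tested.

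**Figure D3:**
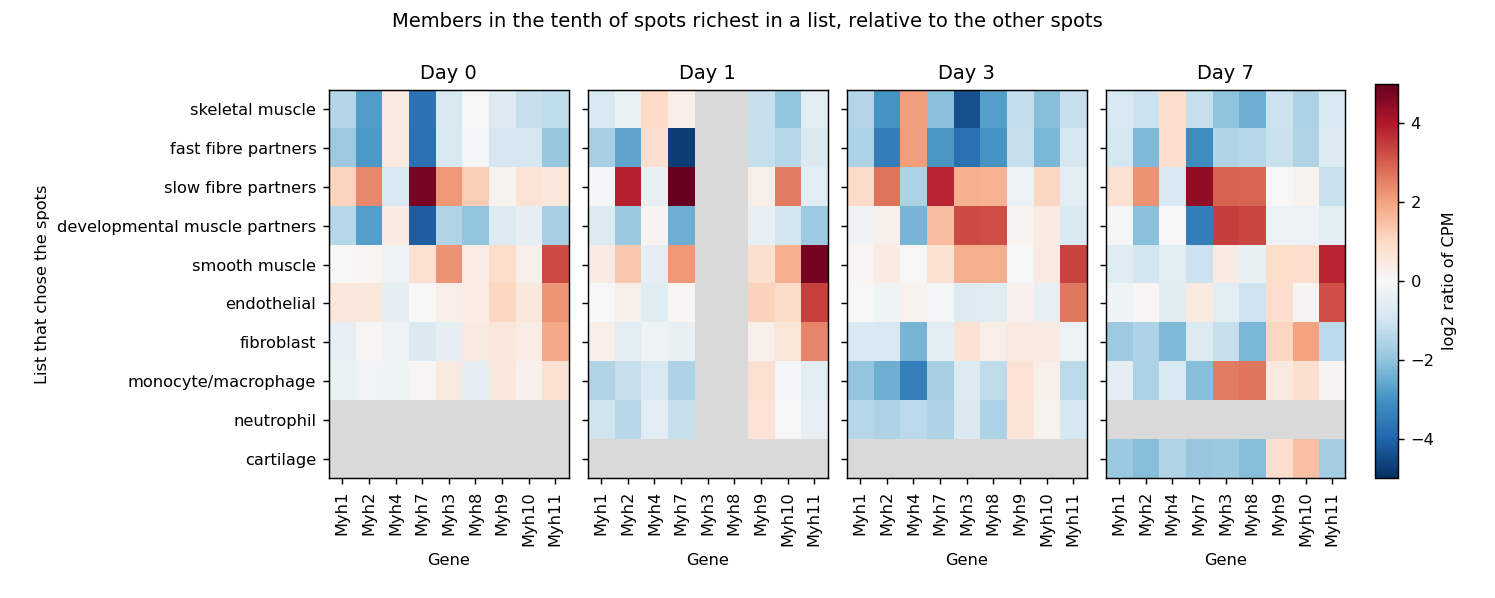
Log2 ratio of a member's CPM (x axis, genes) in the 10% of spots richest in a marker list (y axis, lists) over its CPM in the other spots of that section, with red for higher and blue for lower (values past the ends of the colour scale take the end colour), and grey where the list was in too few spots or the member had under 50 UMIs. Myh7 was highest in spots rich in slow partners on every day, Myh3 and Myh8 in spots rich in developmental partners at days 3 and 7, and Myh11 in spots rich in smooth muscle genes.

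Myh4 led in nearly every spot except on day 3. Among spots with at least 20 sarcomeric Myh UMIs and no tie, Myh4 had the most UMIs in 99.5% on day 0, 97.0% on day 1, 87.3% (86.1 to 88.5) on day 3 and 98.6% on day 7. Spots too poor in these UMIs numbered 1, 589, 156 and 8. On day 3, 363 spots were led by another isoform, of which 270 by Myh1, 62 by Myh2, 20 by Myh3 and 11 by Myh7. On day 1, 28 spots each were led by Myh2 and Myh7, and Myh8 led in 0 of 3022 spots on day 7.

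The spots led by another isoform differed in genes that did not choose them. In the 28 day 1 spots led by Myh7, slow fibre partners were at 32030 CPM against 1927 in spots led by Myh4, a 16.6-fold difference, and fast partners were at 0.249-fold. The 28 led by Myh2 had 10.8-fold the slow partner level, so type 2A and type 1 heavy chains were both found beside slow partners. In the 20 day 3 spots led by Myh3, developmental partners were 8.04-fold and fast partners 0.246-fold the level of Myh4-led spots. Mymx was 10.5-fold, Myl4 8.05-fold and slow troponin Tnni1 8.08-fold higher in them, whereas slow light chain Myl3 was at 0.996-fold. The 270 day 3 spots led by Myh1 had 2.21-fold the developmental level and 2.27-fold the slow level. Their skeletal muscle list stood at 0.701-fold. Depth differed as well, with a median of 26722.5 UMIs per spot in those led by Myh1 and 27653 in those led by Myh3, against 14449 in those led by Myh4, and its part in these folds was not tested.

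Myh1, Myh2 and Myh7 tended to share spots and Myh4 to run against them, though only weakly on some days. Across spots thinned to 2000 UMIs, Spearman's rho of Myh1 and Myh2 was 0.433 on day 0 (2090 spots), 0.151 on day 1 (2154), 0.399 on day 3 (3020) and 0.337 on day 7 (2948). Myh2 and Myh7 had rho of 0.237 on day 0 and 0.493 on day 1, then 0.219 on both later days. Myh1 and Myh7 had rho of 0.234, 0.0485, 0.179 and 0.166 on the 4 days. Myh4 had a rho of -0.518 with Myh1 and -0.498 with Myh2 on day 0. On day 1 its values were near 0, at -0.0807 with Myh1, -0.0875 with Myh2 and -0.0758 with Myh7. On day 7 Myh4 had -0.0951 with Myh1 and -0.151 with Myh2. On day 3 the values with Myh1 and Myh2 were -0.0442 and -0.209. Given the UMIs of the skeletal muscle list the day 3 partial values were -0.372 and -0.420, close to the day 0 partial values of -0.378 and -0.335. Myh4 and Myh3 had a rho of -0.256 on day 3. Spots of a section share a library and are not replicates, so these values describe the section and have no p-value.

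**Figure D4:**
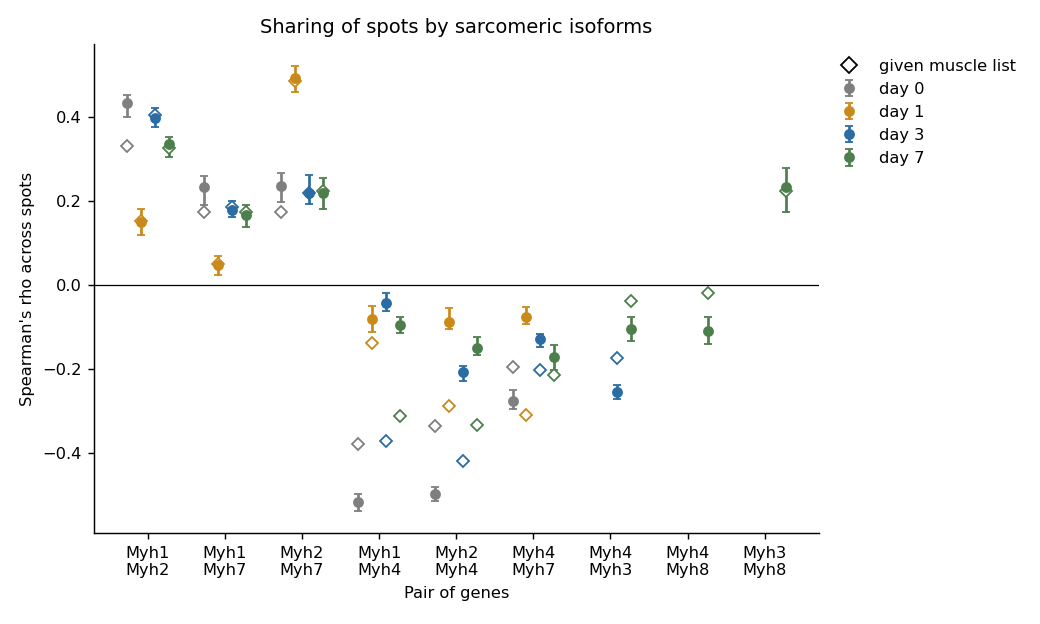
Spearman's rho across the spots of a section (y axis) for pairs of sarcomeric isoforms (x axis), coloured by day; filled points are means over 20 draws of thinning to 2000 UMIs, whiskers the range over draws, and open diamonds the partial rho given the skeletal muscle list. Pairs among Myh1, Myh2 and Myh7 lay above 0 and pairs with Myh4 below 0 on every day, and Myh3 with Myh8 on day 7 was at 0.234.

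Genes whose spot pattern was most like an adult sarcomeric isoform were mostly muscle genes, though Ckm and Mb are in the general skeletal muscle list. Among 1784 to 2435 genes found in enough spots of a section, the closest to Myh4 was Ckm, creatine kinase, on day 0 (rho 0.685), day 1 (0.854) and day 3 (0.922), and Pvalb on day 7 (0.765). For Myh1 it was Mb, myoglobin, on all 4 days (0.429 to 0.646), and for Myh7 on day 1 it was Myl2 (0.692), followed by Tnnt1 and Tnnc1. Myh3 on day 3 was closest to Tmsb10 (0.301) and Myl4 (0.269), and Myh8 on day 7 to Myl4 (0.297), Sln (0.285) and H19 (0.272). Myh3 on day 3 had a UMI in 10.6% of thinned spots and Myh8 on day 7 in 13.2%, against 11.4% for Myh7 on day 1. The part of sparse counts in the low values of the developmental isoforms was not tested. No gene exceeded a rho of 0.203 with Myh9.

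Non-muscle heavy chains were lower on day 1 and higher later on the CPM scale. Myh9 had 91.9 CPM on day 0, 61.3 on day 1, 138 on day 3 and 158 on day 7. Its log2 ratio to day 0 was -0.58 on day 1, 0.59 on day 3 and 0.78 on day 7, and with TMM factors the later values were 0.04 and 0.17. Myh10 had 11.2, 6.50, 16.3 and 14.7 CPM, and its log2 ratios of 0.54 on day 3 and 0.39 on day 7 became -0.0049 and -0.22 with TMM factors, so no direction was read for it on those days. Myh9 had 8.20 UMIs (7.46 to 9.02) per Myh10 UMI on day 0, 9.43 (7.74 to 11.6) on day 1, 8.46 (7.90 to 9.07) on day 3 and 10.7 (9.89 to 11.7) on day 7, so among these intervals those of days 0 and 3 lay apart from that of day 7. The 10 non-muscle partners include actins Actb and Actg1 and the light chains Myl6, Myl12a and Myl12b. Of these, 8 were at least 2-fold higher on day 3, against 31.9% of features. On days 1 and 7 it was 1 each, against 15.8% and 29.3%. The log2 ratios of the 8 ran from 1.01 (Rhoa) to 1.78 (Actg1), and TMM factors moved day 3 ratios by -0.55.

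The pair differed in which spots held them. Myh9 was 2.11-fold (1.95 to 2.28) higher in the endothelial-rich 10% of spots on day 0 and 2.09-fold higher in the fibroblast-rich spots on day 7. Myh10 was higher by 3.99-fold (3.36 to 4.73) in those day 7 fibroblast-rich spots and by 2.85-fold in the cartilage-rich spots, where Myh9 was at 1.83-fold. The cartilage list itself, with Col2a1 and Acan, was at 1689 CPM on day 7 and at 3.40 to 4.54 CPM before. On day 1, 49 Myh10 UMIs fell in the 215 spots richest in slow fibre partners and 57 in the other 1939, a 5.93-fold (3.97 to 8.85) excess in CPM. Myh9 was at 1.24-fold in the same spots.

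Myh11 lay with the other smooth muscle genes in every section. It had 29.0 CPM on day 0, 17.1 on day 1, 15.5 on day 3 and 44.4 on day 7, and the log2 ratio of day 7 to day 3 was 1.52 (1.40 to 1.64). Days 1 and 3 did not differ beyond counting error, with a log2 interval from -0.34 to 0.05. The day 7 ratio to day 0 was 0.61, against 0.005 with TMM factors and -0.02 with size factors, so no direction was read for it. In the 10% of spots richest in smooth muscle genes Myh11 was 9.47-fold higher on day 0, 27.4-fold on day 1, 10.5-fold on day 3 and 14.2-fold on day 7. In endothelial-rich spots it was 4.62-fold, 10.6-fold, 6.30-fold and 9.37-fold higher. Of 9 smooth muscle genes with enough UMIs, 4 were at least 2-fold lower on day 1, 3 on day 3 and 0 on day 7, and 5 were higher on day 7 than on day 3. Cnn1 was 1 gene that went the other way on day 1, from 3.97 to 10.6 CPM. Of all features, 10.4% were lower on day 1, 6.77% on day 3 and 1.42% on day 7, and 13.1% were higher on day 7 than on day 3.

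Genes that build or remove thick filaments moved in both directions. Of 11 such genes, 3 were at least 2-fold higher and 4 lower on day 1, against 15.8% and 10.4% of all features. Trim63, a ubiquitin ligase that targets heavy chains, had 278 CPM on day 0 and 1176 on day 1, and the ligase Fbxo32 had 25.6 and 321 CPM. The chaperone Hsp90aa1 had 57.3 CPM on day 0, 125 on day 1, 272 on day 3 and 69.3 on day 7. The M-band genes Myom1 and Myom2 and the methyltransferase Smyd1 were lower at days 1 and 3 and nearer to day 0 on day 7, while the M-band gene Myom3 had 7.13 CPM on day 0, 13.5 on day 1, 18.7 on day 3 and 11.8 on day 7.

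The remaining heavy chain genes on the feature list added little RNA. Myh14, a further non-muscle isoform, had 11.3 CPM on day 0, 12.4 on day 1, 11.4 on day 3 and 15.8 on day 7. Myh13, the extraocular muscle gene beyond Myh8 in the cluster, had 189 UMIs on day 0 and 4, 23 and 7 later. Myh6 and Myh7b had at most 67 UMIs in a section, and Myh15 had 0, which allows up to 0.0535 to 0.179 CPM at 3 counts.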

How the data were processed

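RNA was captured on 4 fresh frozen tibial muscle sections, 1 per day. The authors deposited gene-by-spot tables of UMI counts, not normalized, from Space Ranger (1.2.0 in the file headers and another version in the methods); the submitters' processing notes name build mm10. The aligner settings and spot positions were not used here. All 10835 spots entered the sums and shares per section. Leading isoforms were read in spots with at least 20 sarcomeric Myh UMIs and no tie.

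UMIs were summed per section and scaled to CPM, with exact Poisson, exact conditional binomial (log2 ratios) and exact Clopper-Pearson (shares) intervals at 95%. A count under 3 was entered at 3. Features with at least 50 UMIs over both sections were compared. With 1 section per day no p-value was computed. Members and the 18 gene lists (132 genes) were chosen with earlier results of these data known. The lists were skeletal muscle, fast, slow and developmental partners, myoblast factors, thick filament, smooth muscle, non-muscle partners, other Myh, monocyte/macrophage, neutrophil, leukocyte, endothelial, pericyte, fibroblast, cartilage, tendon and adipocyte. Genes named were members, list genes and, per member and section, the 3 with the highest rho. Within sections, spots with at least 2000 UMIs (2090, 2154, 3020 and 2948 by day) were thinned to that depth in 20 draws (5 for likeness), and the 10% of these spots with the highest unthinned share of UMIs in a list were compared with the rest of them. PCR duplicates were removed by UMI, and intervals cover counting error only. Promoters came from RefSeq (GRCm38.p6).

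In data simulated with counting error only and 200 changed genes, 95% (day 1) to 99% (day 3) of them lay within 0.5 of the true log2 ratio to day 0. The simulation held no variation between sections and no shift in composition, so it does not measure the accuracy of the day ratios. edgeR 4.0.16 gave TMM factors and DESeq2 1.42.0 size factors as alternative scalings, in R 4.3.3. All other steps ran in Python 3.11.15 (SciPy 1.17.1, NumPy 2.4.6, pandas 2.3.3), with matplotlib 3.10.9 for plots. Other alternatives were a total that left out mitochondrial genes, haemoglobins and myofibre genes, UMIs per spot, spots with at least 1000 UMIs, other thinning depths, and 5% or 20% of spots.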

Additional observations from a re-analysis of the deposited data

How the results depend on the processing

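Of 19 called ratios between sections, the direction was kept in 19 with TMM factors, size factors, a reduced total (mitochondrial genes, haemoglobins and myofibre genes left out), and spots with at least 1000 UMIs, and in 17 per deposited spot, where the log2 ratio of Myh7 was -0.38 (day 1 over day 0) and 0.085 (day 3 over day 1), and the uncalled ratio of Myh4, day 3 over day 1, was 0.85. Members at least 2-fold different at day 1 were 0 higher and 8 lower per spot. That scale moved the day 1 log2 ratios of all features by -1.73, from a median of 0.16. The share of all features past 2-fold was counted for CPM and TMM factors only. Member counts on the other scales are therefore not read as results about the members. At day 3 against day 0 the members past 2-fold were 1 higher and 4 lower with TMM factors, size factors and the reduced total, and 1 higher and 3 lower per spot. At day 7 against day 0, 2 were lower with TMM factors, the reduced total and per spot, and 3 with size factors. At day 3 against day 1, 2 were higher and 2 lower with either set of factors, 3 higher with the reduced total, and 0 lower per spot. Weighting spots equally gave Myh4 shares of 89.8%, 90.9%, 76.4% and 86.7%, and developmental shares of 2.04% at day 3 and 0.860% at day 7. Spots not led by Myh4 were 0.997%, 4.38%, 17.3% and 2.78% when an isoform had to hold over 50% of UMIs. Of 27 rho values of at least 0.1 in absolute size, 26 kept their sign given the muscle list, the exception being Myh4 and Myh9 at day 3 (0.026). Smaller rho values were not counted. Of 139 ratios in list-rich spots that were past 2-fold, 138 kept their direction with the richest 20%, the exception being Myh11 in fibroblast-rich spots at day 7 (0.43). Myh3 and Myh8 at day 1 were too few for such ratios. Division by protein length was not run, as no protein table was at hand. No paired analysis was possible because each day had 1 section and no test. Depth limits day 1 most, where 20 and 17 UMIs carried Myh3 and Myh8. The causes of these changes were not tested.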

Other observations

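Marker lists of other cells differed between the sections that the myosin genes were read from. Neutrophil genes summed to 1.46 CPM in the uninjured section, 158 on day 1, 53.1 on day 3 and 7.77 on day 7, and leukocyte genes to 41.1, 534, 940 and 268 CPM. Fibroblast genes were lowest on day 1 (646 CPM) and highest on day 7 (15394 CPM). Endothelial and pericyte genes summed to 325 and 581 CPM in uninjured muscle, 170 and 202 on day 1, 167 and 260 on day 3, and 307 and 606 on day 7. Tendon genes went from 102 CPM to 459, 723 and 697, and adipocyte genes from 35.3 to 57.2, 14.8 and 30.9. Of the skeletal muscle genes, 2 of 8 were at least 2-fold lower on day 1, 5 on day 3 and 0 on day 7. The shares of all features were 10.4%, 6.77% and 1.42%.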
